A study of Mus musculus with 8 samples.

Results

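The genes described here are 10 mouse genes that p53 is known to switch on or that hold back cell division, chosen by name: Cdkn1a, Mdm2, Ccng1, Gadd45a, Btg2, Plk2, Trp53inp1, Zmat3, Phlda3 and Sesn1. Earlier results of these data were known when the genes were chosen. All 10 were found by symbol among 56859 genes. They were read in 8 libraries of poly(A)-selected RNA from BV2 cells. This microglial line was made from neonatal mouse microglia with a retrovirus that carries raf and myc oncogenes. Every library came from wild-type BV2 cells put through oxygen-glucose deprivation and return to normal medium, a cell model of stroke. The groups were deprivation with 10panx1 at 9 h (3 libraries), deprivation alone at 9 h (3 libraries, called control), deprivation with 10panx1 at 6 h (1 library) and deprivation alone at 6 h (1 library). 10panx1 is a peptide that blocks channels of pannexin 1. At 6 h the peptide stands in the title of the 10panx1 library but not in its treatment label, and the title was followed. No label names cells kept out of deprivation or a control peptide. The protocol gives a deprivation of 9 h for all, and no label says what the 6 h and 9 h of the titles count. Separate cultures are not named either, so p-values refer to the variation among these libraries alone, and that variation may be technical.

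p53, encoded by Trp53, is a transcription factor that is held low by the ubiquitin ligase Mdm2 and freed by DNA damage and other stress. It then raises genes that stop the cell cycle, repair DNA, restrain growth signalling or kill the cell, and it raises Mdm2 itself, which closes a feedback loop. Several of these genes, among them Gadd45a, Plk2 and Btg2, also respond to other stress and growth signals without p53. In bulk RNA a change in the share of cells and a change in RNA per cell cannot be told apart.

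Total counts ran from 18056693 to 23164860 per library, so 3 counts corresponded to 0.13 to 0.166 CPM, the count scaled to library size. Of 12 microglial markers 11 or 12 had a count in each library, but P2ry12 had from 0 to 11 counts and Tmem119 from 14 to 28. Aif1 had 66 counts in control replicate 3 at 9 h and from 14 to 26 elsewhere. Control replicate 3 at 9 h stood apart, with 82 genes that reached 20 counts and exceeded 10 times their count in all others, against at most 1 such gene elsewhere. Its summed level of 9 hepatocyte markers was 210.5 CPM, against 0.609 to 1.79 CPM in the other libraries, and that of 7 fibroblast markers was 41.1 CPM against 0.0463 to 1.65 CPM. Hpx, with 2971 counts in control replicate 3 against 0 to 10 elsewhere, made up most of the hepatocyte sum. Apoa1 (2 counts against 0 to 5) and Apoa2 (5 against 5 to 8) were not raised there. Col1a1, with 553 counts against 1 to 22, made up most of the fibroblast sum. Serpina1c and Lum were at 0 counts in every library, and Dcn was at 0 in control replicate 3. Summed levels of the astrocyte, neuron and oligodendrocyte lists in it were 114, 2.66 and 27.6 CPM, against 106 to 144, 0.831 to 2.965 and 27.8 to 47.96 CPM elsewhere. Aldoc, with 2107 to 3069 counts per library, made up most of the astrocyte sum. Cnp, with 431 to 895 counts per library, made up most of the oligodendrocyte sum, while Mog, Olig2 and Mobp were at 0 in every library. Within these lists Aldh1l1 had 17 counts in control replicate 3 against 0 to 2 elsewhere, Gja1 10 against 0 to 2, and Syt1 9 against 0. Results below that depend on control replicate 3 are given without it too.

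The deposited table gives coordinates on a build it does not name, and few match GRCm38. There Cdkn1a (ENSMUSG00000023067) runs along chromosome 17 from 29309950 to 29319701 (plus strand) and Gadd45a (ENSMUSG00000036390) runs along chromosome 6 from 67012080 to 67014441 (minus strand). In the same coordinates Plk2 (ENSMUSG00000021701) spans chromosome 13 from 110531580 to 110537378 (plus strand), and Mdm2 (ENSMUSG00000020184) spans chromosome 10 from 117524780 to 117546663 (minus strand). All 10 members are listed there as protein coding, and the other 6 lie on chromosomes 1 (Btg2 and Phlda3), 3 (Zmat3), 4 (Trp53inp1), 10 (Sesn1) and 11 (Ccng1).

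The members spanned a wide range of levels, here as TPM, which is scaled by transcript length and library size and so can be compared between genes. Plk2 and Cdkn1a lay on top. Plk2, a polo-like kinase induced by stress and serum, averaged 1252 ± 4.3 TPM with 10panx1 and 1105 ± 26.8 TPM in controls at 9 h (SD, n = 3 each). Cdkn1a encodes p21, the inhibitor of cyclin-dependent kinases, and averaged 1019 ± 36.3 TPM with 10panx1 and 928 ± 26.5 TPM in controls. In each library at 9 h Plk2 was above Cdkn1a, whereas at 6 h it was below it, with 437 against 801 TPM in the 10panx1 library and 345 against 802 TPM in the control. Mdm2 was next at 9 h, with 248 ± 9.56 TPM with 10panx1 and 230 ± 19.95 TPM in controls.

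Gadd45a and Btg2 changed places with treatment at 9 h. Gadd45a, a stress-induced protein that binds PCNA and a MAP kinase kinase kinase, lay between 41.1 and 46.9 TPM with 10panx1 and between 56.0 and 63.5 TPM in controls. Btg2, an antiproliferative protein that recruits the CCR4-NOT deadenylase, lay between 47.8 and 55.96 TPM with 10panx1 and between 45.2 and 47.7 TPM in controls. Gadd45a was thus below Btg2 in every 10panx1 library and above it in every control library at 9 h. The order Gadd45a against Btg2 was a difference in levels between genes and was not tested. Ccng1, which encodes cyclin G1, followed with 27.2 ± 0.799 TPM with 10panx1 and 29.4 ± 2.42 TPM in controls. The RNA-binding zinc finger protein gene Zmat3 lay at 10.2 ± 0.726 and Sesn1 at 8.03 ± 0.267 TPM with 10panx1. In controls Zmat3 lay at 9.84 ± 0.305 and Sesn1 at 10.2 ± 0.892 TPM, so there these neighbours overlapped between libraries. Trp53inp1 was near 1 TPM, with 0.711 ± 0.0614 TPM with 10panx1 and 1.22 ± 0.14 TPM in controls.

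**Figure D1:**
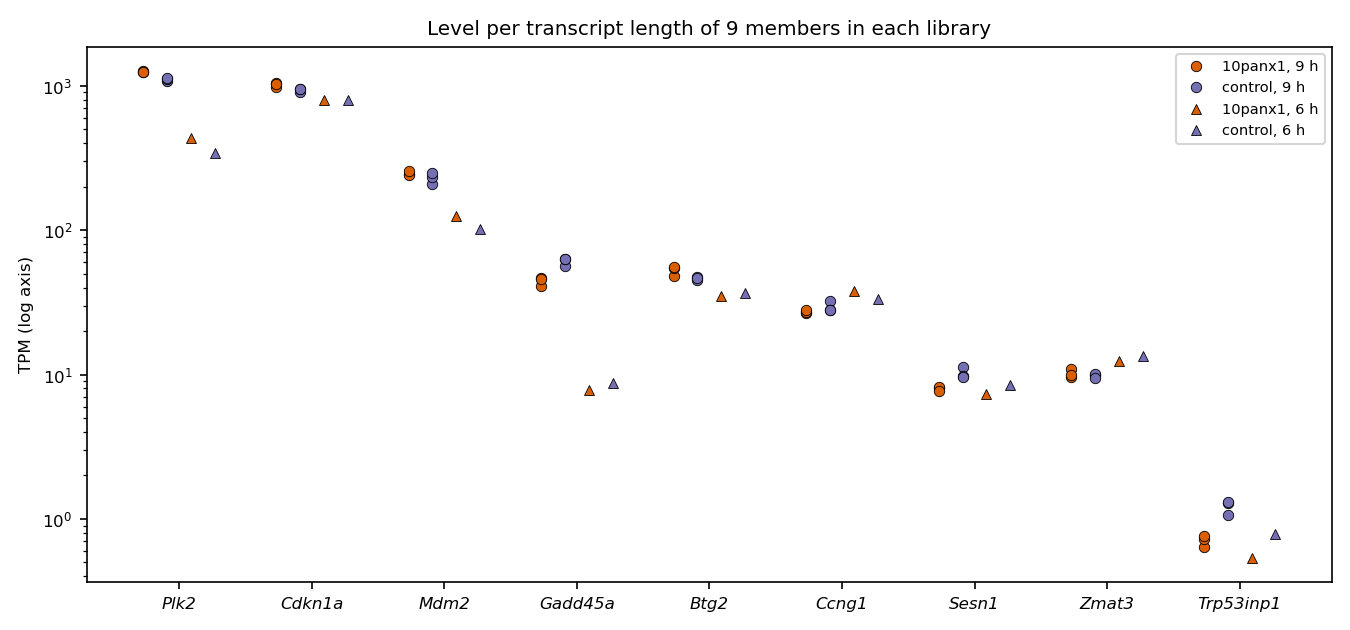
Levels in TPM on a log axis, 1 point a library, for 9 members ordered by their mean in controls at 9 h; circles are 9 h and triangles 6 h, orange 10panx1 and violet control. Plk2 and Cdkn1a exceed 300 TPM in every library, and Gadd45a lies near 8 TPM at 6 h and above 40 TPM at 9 h. Phlda3 is left out because it is listed at 0 in most libraries.

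Phlda3, whose protein competes with the kinase Akt for the membrane, was hardly read in these cells. It had 0 counts in all 3 10panx1 libraries at 9 h and in the first control library, 1 count in the second and 13 in control replicate 3. At 6 h it had 0 counts in both libraries. A count of 0 allows up to 0.13 to 0.166 CPM, and control replicate 3 reached 0.686 CPM. It failed the filter on low counts and was not tested. Without that filter edgeR called it lower with 10panx1 (adjusted p = 0.0188), on counts of which 13 of 14 came from the library that stood apart. The other 9 members passed the filter.

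The promoters of 8 members were matched by symbol in RefSeq's table for GRCm38.p6, which gives 250 bases before to 50 after each start, and they are shown for the members the results turn on. Capitals mark exact matches to the p53 consensus decamer, of which a p53 response element holds a pair. In Plk2 and Btg2 they mark the cAMP response element TGACGTCA. A decamer with any mismatch is left unmarked, so the capitals need not mark a whole response element. The decamer was found, reading both strands, in promoters of Ccng1, Cdkn1a, Gadd45a, Mdm2 and Sesn1, and in 8.36% of all 32851 promoters of that length. Paired decamers with a spacer of up to 13 bases were found in 0.07% of all promoters and, among members, only in the upstream of the 2 Cdkn1a starts, where the decamers lie at bases -73 to -64 and -51 to -42. The shorter core CATG was found in promoters of Cdkn1a, Gadd45a and Phlda3 and in 61.11% of all promoters, and it overlaps the second Cdkn1a decamer. Another CATG lies at bases -38 to -35, in the unmarked bases tgacatgttc right after that decamer. TGACGTCA, searched after the values were known, was found in those of Plk2 and Btg2 and in 1.79% of all promoters. The unmarked bases right after the second Cdkn1a decamer miss the consensus only at their opening t. The exact search therefore cannot show which Cdkn1a decamers form a response element. A match describes the letters in this window only.
Cdkn1a, chr17:29090729-29091028, plus strand: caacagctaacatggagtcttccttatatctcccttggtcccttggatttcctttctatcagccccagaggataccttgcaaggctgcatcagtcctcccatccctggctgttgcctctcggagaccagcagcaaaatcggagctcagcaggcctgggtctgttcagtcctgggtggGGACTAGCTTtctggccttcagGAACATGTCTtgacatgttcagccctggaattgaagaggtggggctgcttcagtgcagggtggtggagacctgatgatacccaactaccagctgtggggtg
Gadd45a, chr6:67037358-67037657, minus strand: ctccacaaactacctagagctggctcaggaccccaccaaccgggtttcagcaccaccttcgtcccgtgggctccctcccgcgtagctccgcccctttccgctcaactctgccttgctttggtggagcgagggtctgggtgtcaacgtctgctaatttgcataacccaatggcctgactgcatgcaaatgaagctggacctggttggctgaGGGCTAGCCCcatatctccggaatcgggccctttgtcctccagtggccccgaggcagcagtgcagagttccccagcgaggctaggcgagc
Mdm2, chr10:117710709-117711008, minus strand: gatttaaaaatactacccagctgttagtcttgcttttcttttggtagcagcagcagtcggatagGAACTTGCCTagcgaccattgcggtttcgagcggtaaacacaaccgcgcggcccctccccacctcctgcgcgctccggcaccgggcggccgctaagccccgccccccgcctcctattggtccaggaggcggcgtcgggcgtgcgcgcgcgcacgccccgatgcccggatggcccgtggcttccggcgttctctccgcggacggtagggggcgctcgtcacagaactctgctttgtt
Plk2, chr13:110394794-110395093, plus strand: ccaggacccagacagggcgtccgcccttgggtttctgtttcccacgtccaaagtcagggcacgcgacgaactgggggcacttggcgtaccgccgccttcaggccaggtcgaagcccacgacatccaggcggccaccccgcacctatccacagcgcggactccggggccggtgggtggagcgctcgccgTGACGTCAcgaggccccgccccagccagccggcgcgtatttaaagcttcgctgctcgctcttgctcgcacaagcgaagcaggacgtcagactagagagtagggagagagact
Btg2, chr1:134079106-134079405, minus strand: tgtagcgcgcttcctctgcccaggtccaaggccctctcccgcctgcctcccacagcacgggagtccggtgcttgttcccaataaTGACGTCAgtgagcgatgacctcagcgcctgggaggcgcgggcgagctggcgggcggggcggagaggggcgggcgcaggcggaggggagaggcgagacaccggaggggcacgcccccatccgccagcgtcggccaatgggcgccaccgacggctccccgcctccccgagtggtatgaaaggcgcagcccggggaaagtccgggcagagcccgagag

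The comparison at 9 h asks which transcripts differ when 10panx1 is added to deprivation. Gadd45a, Trp53inp1 and Sesn1 fell and Plk2 rose, while Cdkn1a, Mdm2, Btg2, Ccng1 and Zmat3 did not pass the test. These 4 calls among 9 tested members stand against 9.21% of 13392 genes that edgeR called at an adjusted p under 0.05 (quasi-likelihood test, Benjamini-Hochberg adjustment), with 5.06% of tested genes higher and 4.14% lower. Calls went in both directions, with a median log2 fold change of 0.05 over the 9 tested, against -0.0031 over all tested genes. The 10panx1 and control libraries did not overlap in CPM for 5 members (Plk2 and Cdkn1a higher, Gadd45a, Trp53inp1 and Sesn1 lower), as for 29% of all tested genes, 14% higher and 15% lower.

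Among the cell cycle inhibitors, Gadd45a had 22.5, 19.6 and 22.5 CPM in the 10panx1 libraries at 9 h, against 26.9, 30.6 and 30.6 CPM in controls. Each 10panx1 library was below each control library. The log2 fold change was -0.44 ± 0.086 (SE; edgeR, adjusted p = 0.00564), or 1.36-fold lower with 10panx1. The call held without each library in turn, with adjusted p from 0.00713 to 0.035.

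Plk2 had 1382, 1366 and 1395 CPM with 10panx1, against 1183, 1236 and 1250 CPM in controls. The 10panx1 libraries were all higher and lay close together. The log2 fold change was 0.18 ± 0.041 (SE; edgeR, adjusted p = 0.0159), a rise of 1.13-fold. The edgeR call of Plk2 did not survive leaving out control replicate 1 (adjusted p = 0.0793), control replicate 2 (adjusted p = 0.0575) or 10panx1 replicate 3 (adjusted p = 0.0623).

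Cdkn1a had 799, 851 and 854 CPM with 10panx1, against 732, 782 and 775 CPM in controls. No 10panx1 library lay below a control library, yet the gene did not pass. Its log2 fold change was 0.13 (95% interval 0.03 to 0.23; edgeR, adjusted p = 0.0889). Btg2 had 51.5, 58.3 and 61.2 CPM with 10panx1, against 48.6, 52.1 and 50.3 CPM in controls. Its groups overlapped, and its log2 fold change of 0.18 had a 95% interval from 0.03 to 0.33 (edgeR, adjusted p = 0.128). Without 10panx1 replicate 1 edgeR called Btg2 higher, at a log2 fold change of 0.25 (adjusted p = 0.0342).

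In the p53 feedback loop, Mdm2 had 304, 293 and 324 CPM with 10panx1, against 257, 293 and 307 CPM in controls. The groups overlapped, and the log2 fold change was 0.10 (95% interval -0.03 to 0.24; edgeR, adjusted p = 0.328). Without control replicate 1 the estimate for Mdm2 was 0.03. Trp53inp1, a stress-induced protein that promotes p53 phosphorylation, had 1.37, 1.54 and 1.65 CPM with 10panx1, against 2.75, 2.29 and 2.795 CPM in controls. Each 10panx1 library was below each control, on 29 to 37 counts with 10panx1 and 48 to 58 counts in controls. The log2 fold change was -0.77 ± 0.22 (SE; edgeR, adjusted p = 0.0422). The edgeR call of Trp53inp1 was lost without each library in turn, with adjusted p from 0.0656 to 0.127, and without control replicate 3 the adjusted p was 0.11. DESeq2 (adjusted p = 0.0709) and an edgeR fit on all 8 libraries (adjusted p = 0.0529) did not call it.

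Ccng1, whose protein binds a phosphatase that acts on Mdm2, had 36.6, 37.1 and 39.4 CPM with 10panx1, against 44.3, 39.1 and 38.9 CPM in controls. Its groups overlapped, and the log2 fold change was -0.11 (95% interval -0.27 to 0.04; edgeR, adjusted p = 0.379). Zmat3 had 29.3, 33.4 and 31.1 CPM with 10panx1, against 30.2, 31.5 and 29.3 CPM in controls. Its libraries were mixed, with a log2 fold change of 0.05 (95% interval -0.11 to 0.21; edgeR, adjusted p = 0.766).

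Of the members that restrain growth signalling, Sesn1 encodes a sestrin, a leucine sensor that limits mTORC1. It had 12.1, 12.25 and 11.8 CPM with 10panx1, against 16.75, 14.7 and 14.5 CPM in controls. The 10panx1 libraries lay close together, all below the controls. The log2 fold change was -0.35 ± 0.096 (SE; edgeR, adjusted p = 0.0346), or 1.27-fold lower with 10panx1. The edgeR call of Sesn1 was lost without each library in turn, with adjusted p from 0.0535 to 0.1445, and the lowest of these was without control replicate 3.

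**Figure D2:**
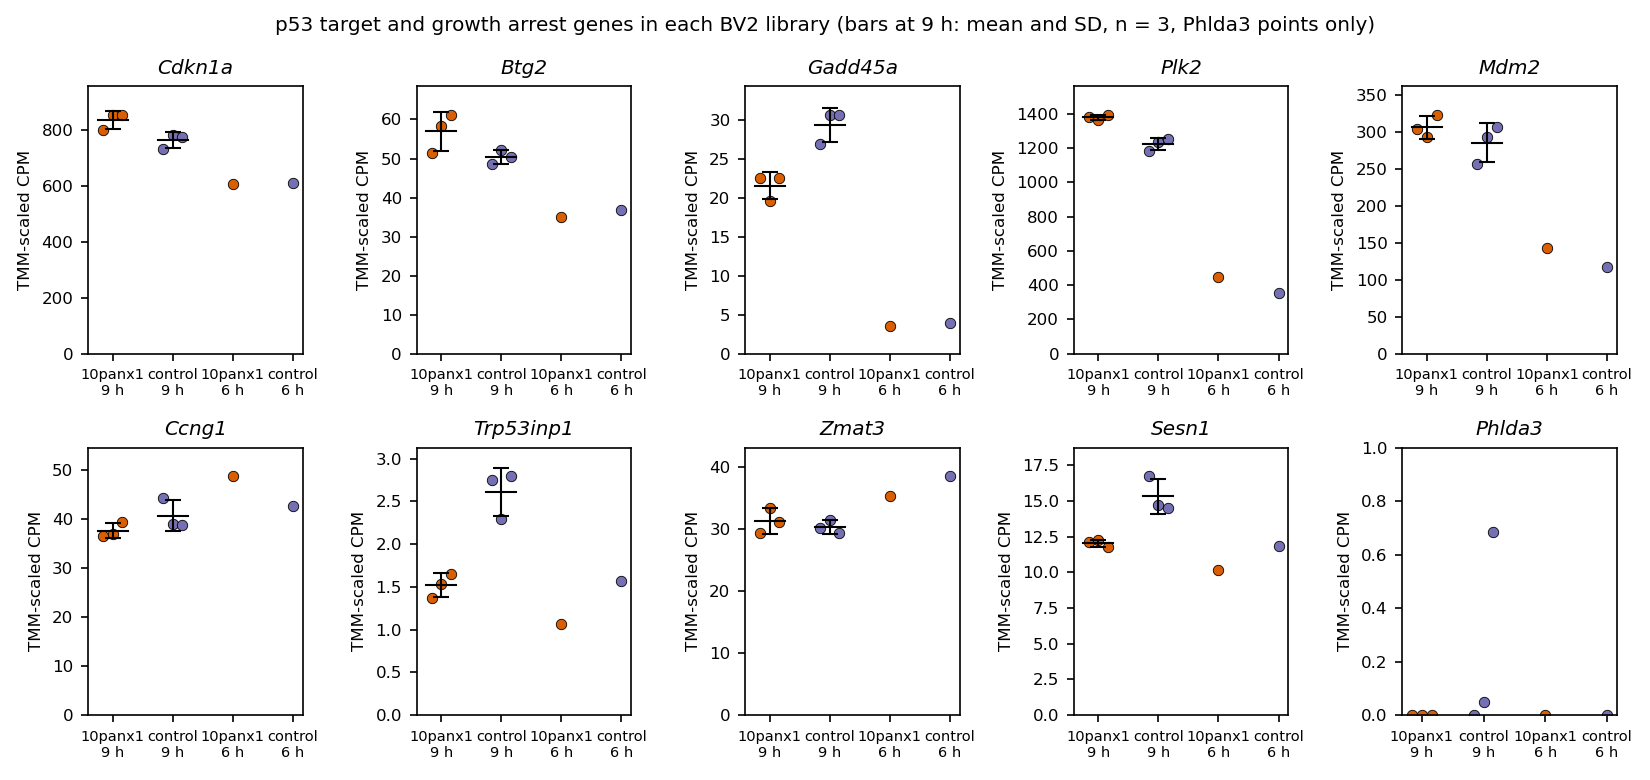
TMM-scaled CPM of the 10 members on a linear axis from 0, 1 point a library, with bars for the mean and SD at 9 h (n = 3) except for Phlda3. At 9 h Gadd45a, Trp53inp1 and Sesn1 are lower and Plk2 and Cdkn1a higher in each 10panx1 library, and Phlda3 rises above 0 only in control replicates 2 and 3.

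At 6 h each treatment held 1 library, so the values have no replicate check and no test was made. Gadd45a stood at 3.5 CPM in the 10panx1 and 3.93 CPM in the control library, Trp53inp1 at 1.06 and 1.57 CPM, and Sesn1 at 10.2 and 11.8 CPM. Gadd45a, Trp53inp1 and Sesn1 were lower in the 10panx1 library at 6 h and lower at 9 h. The 6 h values rest on few counts for Gadd45a (66 with 10panx1 and 90 in the control) and Trp53inp1 (20 and 36). Whether they differ at 6 h was not tested. Plk2 stood at 447 CPM in the 10panx1 and 353 CPM in the control library, and Mdm2 at 143 and 118 CPM. Cdkn1a was nearly level, with 607 CPM in the 10panx1 and 610.4 CPM in the control library. Ccng1 was higher in the 10panx1 library, at 48.8 against 42.7 CPM. Zmat3 stood at 35.2 CPM in the 10panx1 and 38.5 CPM in the control library, and Btg2 at 35.02 and 36.7 CPM. The log2 ratio of 10panx1 over control changed sign between the times for Ccng1, Cdkn1a (-0.007 at 6 h and 0.13 at 9 h), Btg2 (-0.07 and 0.18) and Zmat3 (-0.13 and 0.04), and kept its sign for the other 5 tested members.

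Whether the 10panx1 difference at 9 h differed from that at 6 h was tested in a model of treatment, time and their interaction. None of the 9 members was called by edgeR, where 0% of 15331 genes were called, and no member had an unadjusted p under 0.05. DESeq2 also called 0 members, and 0 had an unadjusted p under 0.05 with it. The largest interaction estimate among members, by size, was that of Ccng1, at -0.31 on the log2 scale (9 h minus 6 h; 95% interval -0.61 to 0.0021; edgeR, adjusted p = 0.886). For Gadd45a the estimate was -0.28 (95% interval -0.83 to 0.27; edgeR, adjusted p = 0.928). With 1 library per treatment at 6 h these intervals leave room for sizeable differences.

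The libraries at 9 h were then set against those at 6 h, with treatment as a covariate, which asks how the genes moved with time in both treatments. Gadd45a, Plk2, Mdm2, Trp53inp1, Btg2, Cdkn1a and Sesn1 were higher at 9 h, and Zmat3 and Ccng1 were lower. All 9 tested members were called, but so were 59.8% of 15331 tested genes, with 30.3% higher and 29.6% lower. The median log2 fold change was 0.58 over these 9 and 0.01 over all tested genes. All libraries at 9 h lay outside both at 6 h for 6 members (5 higher, 1 lower), as for 59.3% of all tested genes, 29.7% higher and 29.6% lower. No label names a batch of library making, so time and batch cannot be told apart. At 6 h each treatment held 1 library, so SEs and p-values between the times rest mainly on spread among the 9 h libraries. Values at 6 h given without a treatment are means of both libraries and have no SD. The SDs given at 9 h over both treatments (n = 6) include the treatment difference. Mitochondrial transcripts took from 1.14% to 1.28% of counts at 9 h and 1.43% to 1.51% at 6 h, and their part in the result was not tested.

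Gadd45a moved the most among the members. It had from 19.6 to 22.5 CPM with 10panx1 and from 26.9 to 30.6 CPM in controls at 9 h, against 3.5 CPM with 10panx1 and 3.93 CPM in the control at 6 h. The log2 fold change of 9 h over 6 h was 2.77 ± 0.125 (SE; edgeR, adjusted p = 1.68e-10), or 6.84-fold. Its ratio of 9 h over 6 h on the log2 scale was 2.59 within 10panx1 and 2.87 within controls. Plk2 rose 3.27-fold, with a log2 fold change of 1.71 ± 0.048 (SE; edgeR, adjusted p = 2.17e-12). Its levels averaged 1302 ± 89.7 CPM at 9 h (SD, n = 6, both treatments) and 399.9 CPM at 6 h.

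Mdm2 rose 2.28-fold, to 296 ± 22.4 CPM at 9 h (SD, n = 6) against 130.4 CPM at 6 h, a log2 fold change of 1.19 ± 0.07 (SE; edgeR, adjusted p = 2.71e-09). Trp53 itself went the other way. It lay at 229.8 ± 7.41 CPM at 9 h (SD, n = 6) and 307.5 CPM at 6 h, a log2 fold change of -0.42 ± 0.046 (SE; edgeR, adjusted p = 1.76e-06). A pseudogene of Trp53 exists in the mouse and the handling of reads shared with it is not given in the sources used here. Transcript levels say nothing of p53 protein, which is set largely by its stability.

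Btg2 rose to 53.7 ± 4.94 CPM at 9 h (SD, n = 6), against 35.8 CPM at 6 h, a log2 fold change of 0.58 (edgeR, adjusted p = 1.92e-05). Cdkn1a rose to 799 ± 46.9 CPM at 9 h (SD, n = 6), against 609 CPM at 6 h, a log2 fold change of 0.39 ± 0.047 (SE; edgeR, adjusted p = 4.54e-06). The rises of Btg2 and Cdkn1a were smaller than those of Gadd45a, Plk2 and Mdm2, and both calls held without each library in turn. Sesn1 had log2 ratios of 9 h over 6 h of 0.24 within 10panx1 and 0.37 within controls, with a joint log2 fold change of 0.31 (edgeR, adjusted p = 0.0134). Without the control library at 6 h the edgeR call of Sesn1 was lost (adjusted p = 0.189).

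Trp53inp1 had a log2 fold change of 0.64 (95% interval 0.13 to 1.14; edgeR, adjusted p = 0.0298). Its 10panx1 libraries at 9 h, from 1.37 to 1.65 CPM, lay around the control library at 6 h, at 1.57 CPM. With edgeR Trp53inp1 was not called without control replicate 1 at 9 h (adjusted p = 0.0539), control replicate 3 at 9 h (adjusted p = 0.0515), the control library at 6 h (adjusted p = 0.257) or the 10panx1 library at 6 h (adjusted p = 0.0747). DESeq2 (adjusted p = 0.0858) and edgeR without a filter on low counts (adjusted p = 0.0772) did not call it either.

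Zmat3 was lower at 9 h, with 30.8 ± 1.55 CPM (SD, n = 6) against 36.9 CPM at 6 h, a log2 fold change of -0.26 (edgeR, adjusted p = 0.00765), and lost the call without the control library at 6 h, at -0.18 (adjusted p = 0.195). Ccng1 had a log2 fold change of -0.22 (edgeR, adjusted p = 0.0261). Its log2 ratio of 9 h over 6 h was -0.37 within 10panx1 and -0.07 within controls, so the joint value leaned on 1 library. Without the 10panx1 library at 6 h the estimate for Ccng1 was -0.08 (edgeR, adjusted p = 0.56), without the control library at 6 h it was -0.38 (adjusted p = 0.00815), and without 10panx1 replicate 1 at 9 h the call was lost (adjusted p = 0.0535).

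**Figure D3:**
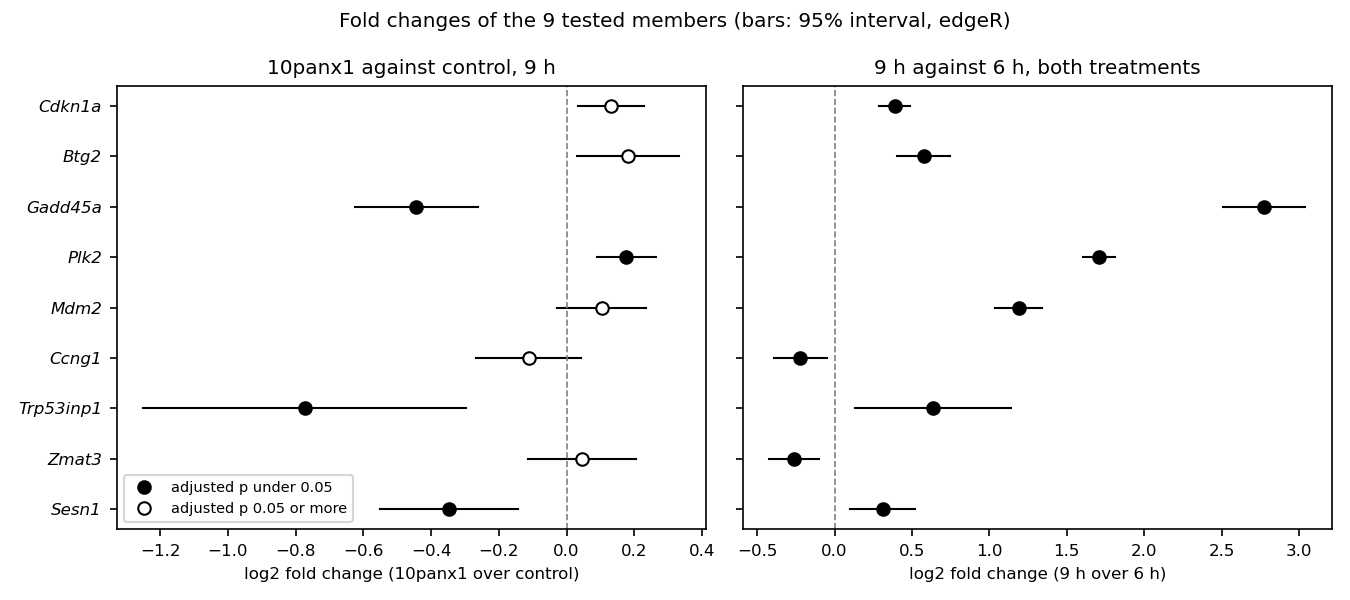
Log2 fold changes of the 9 tested members with 95% intervals from edgeR, for 10panx1 over control at 9 h on the left and 9 h over 6 h on the right; the horizontal scales differ, and filled points had an adjusted p under 0.05. Gadd45a lies at -0.44 on the left and 2.77 on the right, whereas Plk2 is above 0 in both panels.

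The other genes of the pathway were read from lists by function, chosen with earlier results of these data known. Of 19 genes for p53 and its regulators, 17 were tested at 9 h, where 1 rose and 3 fell with 10panx1. Over all tested genes 9.21% were called, 5.06% higher and 4.14% lower. Hipk2, a kinase that phosphorylates p53, rose by 0.45 on the log2 scale to 116 ± 3.47 CPM with 10panx1, against 84.9 ± 9.45 CPM in controls (SD, n = 3 each; edgeR, adjusted p = 0.00184). Ppm1d, which encodes the Wip1 phosphatase that reverses p53 phosphorylation, fell to 23.9 ± 0.336 CPM, against 31.3 ± 2.01 CPM in controls (SD, n = 3 each; edgeR, adjusted p = 0.005465). The calls of Hipk2 and Ppm1d held without each library in turn. The deacetylase Sirt1 and the checkpoint kinase Chek2 had log2 fold changes of -0.29 and -0.37 (edgeR, adjusted p = 0.0361 and 0.0409). Both kept the call only without 10panx1 replicate 1, and otherwise had adjusted p from 0.0513 to 0.144 without 1 library. Without control replicate 3 the list had 1 rise and 1 fall. Trp53 lay at 232 ± 7.34 CPM with 10panx1 and 227 ± 8.001 CPM in controls, with a log2 fold change of 0.03 (95% interval -0.06 to 0.13; edgeR, adjusted p = 0.708). The list's median was 0.01.

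Of 36 other p53 targets, in apoptosis, DNA repair and metabolism, 32 were tested at 9 h, where none rose and 3 fell, close to the share of genes called over all tested. Tigar, a phosphatase that lowers a driver of glycolysis, fell to 41.9 ± 1.91 CPM with 10panx1, against 56.6 ± 1.39 CPM in controls (SD, n = 3 each; edgeR, adjusted p = 0.00156). Rps27l, a ribosomal protein relative that shares sequence with Rps27, had a log2 fold change of -0.38 (edgeR, adjusted p = 0.005465), and how shared reads were counted is not given in the sources used here. Pmaip1, the death-promoting protein Noxa, had a log2 fold change of -0.31 (edgeR, adjusted p = 0.0131) and was not called without control replicate 1 (adjusted p = 0.0645) or 10panx1 replicate 3 (adjusted p = 0.0555). The list's median log2 fold change was -0.12, with 23 of 32 estimates below 0, against 6823 of 13392 over all tested genes. Without control replicate 3 again 3 fell.

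Of 22 relatives of the members and other growth arrest genes, 18 were tested at 9 h, where none rose and 3 fell. Over all tested genes 5.06% were called higher and 4.14% lower. Plk3, another polo-like kinase, fell to 57.3 ± 2.71 CPM with 10panx1, against 72.8 ± 1.46 CPM in controls (SD, n = 3 each; edgeR, adjusted p = 0.00265), so that Plk2 and Plk3 went opposite ways. Tob1 and Tob2, antiproliferative proteins of the family of Btg2, had log2 fold changes of -0.59 and -0.27 (edgeR, adjusted p = 0.00306 and 0.0195). Tob2 was not called without control replicate 1 (adjusted p = 0.0722), control replicate 2 (adjusted p = 0.056) or 10panx1 replicate 3 (adjusted p = 0.0858). The paralogs Gadd45b and Gadd45g, which share the stress-kinase role of Gadd45a, had log2 fold changes of -0.27 and -0.28 and did not pass (edgeR, adjusted p = 0.05132 and 0.1085). The list's median was -0.14. Without control replicate 3 again 3 fell.

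Between the times, 59.8% of all tested genes were called, which is the background for the lists. Among p53 and its regulators 5 of 17 tested were higher and 4 lower at 9 h, a share near that background, and the list's median log2 fold change was 0.10. The acetyltransferases Crebbp and Kat5 rose by 0.82 and 0.77 on the log2 scale (edgeR, adjusted p = 7.89e-09 and 2.73e-07), Hipk2 by 0.44 and the deubiquitinase Usp7 by 0.21 (edgeR, adjusted p = 8.98e-05 and 0.001002). Besides Trp53, the kinase Atm and the p53 inhibitor Mdm4 had log2 fold changes of -0.32 and -0.38 (edgeR, adjusted p = 0.0001155 and 0.0003355), so Mdm4 moved opposite to its relative Mdm2. Chek2 had a log2 fold change of -0.62 (edgeR, adjusted p = 0.000268), and of -0.38 without the 10panx1 library at 6 h (adjusted p = 0.0352).

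Of 33 other p53 targets tested, 16 were lower and 5 higher at 9 h, beside 29.6% lower and 30.3% higher over all tested genes, and the list's median log2 fold change was -0.23, against 0.01 over all tested genes. Pidd1, a death-domain protein, had a log2 fold change of -1.22 and Rrm2b, a ribonucleotide reductase subunit, of -1.02 (edgeR, adjusted p = 2.435e-07 and 3.31e-06). Gtse1 and Ei24 followed with -0.61 and -0.51 (edgeR, adjusted p = 1.197e-06 and 7.16e-06). Higher at 9 h were Ercc5, a DNA repair nuclease, by 0.84 and Sesn2, a sestrin like Sesn1, by 0.72 on the log2 scale (edgeR, adjusted p = 1.22e-06 and 7.83e-07). Ddit4, an inhibitor of mTORC1, and the tetraspanin Cd82 rose by 0.49 and 0.33 (edgeR, adjusted p = 6.33e-06 and 0.000189).

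Relatives and growth arrest genes had 8 higher and 7 lower of 19 tested at 9 h, with a median of -0.05, beside 30.3% higher and 29.6% lower over all tested genes. Gadd45g rose with Gadd45a, to 20.8 ± 3.06 CPM at 9 h (SD, n = 6) against 3.63 CPM at 6 h (edgeR, adjusted p = 2.86e-09). Gadd45b did not pass, with 20.03 to 26.6 CPM at 9 h and 21.5 and 27.5 CPM at 6 h (edgeR, adjusted p = 0.5328). Btg1 rose by 1.34, Phlda1 by 1.62 and Ccng2 by 0.76 on the log2 scale (edgeR, adjusted p = 3.89e-08, 9.33e-08 and 1.37e-07). Ccng2 thus rose while Ccng1 did not. Lower at 9 h were the kinase inhibitors Cdkn2c, Cdkn2d and Cdkn1b with log2 fold changes of -1.58, -0.60 and -0.39 (edgeR, adjusted p = 1.547e-07, 2.05e-05 and 0.000449). Another, Cdkn2b, named after its values were seen, was higher like Cdkn1a, by 0.50 on the log2 scale (edgeR, adjusted p = 0.003433). Tob1 had a log2 fold change of -0.51 (edgeR, adjusted p = 0.000604).

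**Figure D4:**
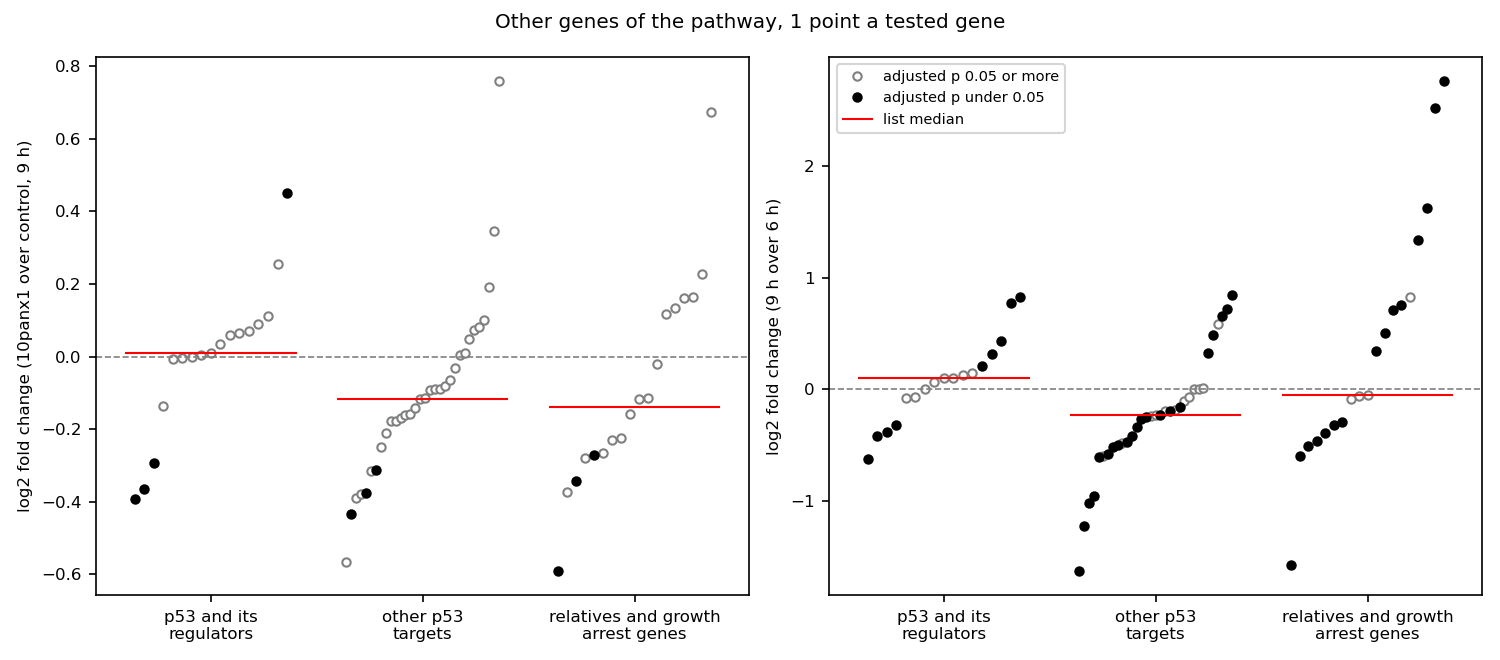
Log2 fold changes of the tested genes of the 3 pathway lists, 1 point a gene ordered by value, for 10panx1 over control at 9 h on the left and 9 h over 6 h on the right; red lines are list medians and filled points had an adjusted p under 0.05. On the left few points are filled and 9 of the 10 filled points lie below 0, beside 555 of 1233 called genes over all tested. The lists were chosen with earlier results of these data known, so this tally is not an independent check. On the right filled points lie on both sides.

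For the likeness of whole profiles, the log2 CPM of 9933 other genes, each centred on its mean, was compared with that of Cdkn1a and of Mdm2 over the 8 libraries. Among the closest to Cdkn1a were Ctnna1 and Ap1b1, with root mean square differences of 0.0253 and 0.0296 on the log2 scale. Ctnna1 had 246.4, 261.7 and 263 CPM with 10panx1 and 229.2, 235.5 and 232.4 CPM in controls at 9 h, and 187.1 CPM with 10panx1 and 180.6 CPM in the control at 6 h. Closest to Mdm2 were Cpeb4, Uvrag and Tsc22d1, with differences of 0.0543, 0.0555 and 0.0555 on the log2 scale. None of these 5 is a member or stands on the pathway lists.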

How the data were processed

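Libraries were prepared from BV2 mRNA with a strand-marking kit, per the labels' protocols. The authors deposited whole-number read counts per gene and TPM values, both as gene tables of 8 libraries. FastQC, Trimmomatic, STAR, featureCounts, DESeq2 and GRCm38 are named per the submitters' processing notes, without versions or roles; the sources used here give neither the strand setting nor the handling of shared reads. Only 1420 of 51933 nuclear genes (2.734%) start where the GRCm38 annotation puts them.

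Each table had 57010 rows, and 151 repeated rows were dropped. The deposited counts were tested over all genes with edgeR 4.0.16 (R 4.3.3, TMM scaling, filterByExpr, quasi-likelihood test, Benjamini-Hochberg adjustment, threshold 0.05). Standard errors came from the test statistic, and log2 ratios used a prior count of 2. Motif and plot steps used Python 3.11.15. Scripts were tested on simulated counts. Alternatives used DESeq2 1.42.0, limma 3.58.1 and TPM, other scalings and filters, and each library left out. Between replicates, counts at 9 h varied beyond sampling noise (chi-square over degrees of freedom 3.235 to 7.099).

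All members were named, with list genes called at 9 h and, between times, up to 4 per list and direction with the smallest p. Gadd45b, Gadd45g at 9 h and marker genes were named after their values were seen. Members and lists were chosen with earlier results of these data known. Intervals and floors cover counting error or spread between libraries only. A gene with a profile like that of Cdkn1a is not reported here.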

Additional observations from a re-analysis of the deposited data

How the results depend on the processing

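Under other scalings, filters and tools, with each library left out, the direction of every tested member held in all 3 comparisons except Zmat3 at 9 h, whose log2 fold change was -0.0047 without 10panx1 replicate 2 and at most 0.0881 without another library. With 10panx1 against control at 9 h, 4 members were called, from 1 to 3 without 1 library. Limma on log2(TPM + 1) or log2(TPM + 0.1), with a mean TPM of at least 1, called 2 members, Gadd45a and Plk2. Trp53inp1 fell short of that mean and was not tested there. Over all genes 1233 were called, from 598 to 1433 without 1 library, and limma on TPM called 368 with a pseudocount of 1 and 371 with 0.1. Without a filter on low TPM limma called 0 genes and 0 members, with 3422 genes and 6 members at an unadjusted p under 0.05; the cause was not tested. DESeq2 called 1305 genes and 3 members, without Trp53inp1.

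Whether replicate numbers in the titles pair the libraries was not settled. Deviations of same-numbered libraries correlated at 0.0944, -0.00703 and 0.0741 for replicates 1, 2 and 3. Those of replicates 1 and 3 were the highest of all pairs, the next being 0.0417. However, 10panx1 replicate 2 correlated best with control replicate 1, and so few libraries cannot decide the question. A replicate block called 1850 genes and 5 members, adding Cdkn1a (edgeR, adjusted p = 0.0328). For 9 h against 6 h from 6 to 9 members were called without 1 library. On the TPM scale the median of all genes shifted to -0.11. Calls there split into 3062 higher and 5073 lower, against 4643 and 4532 by edgeR on counts. Sesn1 (0.17, limma, adjusted p = 0.109) and Usp7 (0.10, limma, adjusted p = 0.0813) lost their calls there. Trp53inp1 again fell short of the mean TPM and was not tested. The interaction called 0 genes, with 874 at an unadjusted p under 0.05 by edgeR and 435 by DESeq2, which called 0. It called from 0 to 1 genes without 1 library, and 34 without a filter on low counts. No member was called in any of these. Depth limits Trp53inp1 and Phlda3, which had at most 58 and 13 counts.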
